A study of Mus musculus with 3 samples.

Results

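The ATP-binding cassette (ABC) transporter genes of mouse jejunum are described here in intestinal Sox4 knockout relative to wild type. A gene was counted as a member where its symbol in the array annotation began with Abc, a subfamily letter from a to g and a digit, and 47 of 20774 named genes met this rule, with 74 of 31465 named features. They fall into 7 subfamilies, with 15 genes in Abca, 9 in Abcb, 10 in Abcc, 3 in Abcd, 1 in Abce, 3 in Abcf and 6 in Abcg.

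Knockout samples were whole proximal jejunum of Sox4 knockout mice, whose sample titles name vilCre, the villin-driven recombinase of intestinal epithelium, and they were set against wild-type whole proximal jejunum. Each of 3 two-colour arrays held a different knockout mouse in Cy5 and wild-type RNA in Cy3. Strain, age, any Cre in the wild type and any pooling of wild-type RNA are not stated in the labels. Each value is the log2 of knockout over wild type, so a negative value means less RNA in the knockout, and means carry the SD over the 3 arrays. The direction follows the dyes in the labels and base 2 is the usual unit, but neither is settled by the table itself: the other direction would turn every sign. Features close to background could not be set apart, since spot intensities were not used here. In whole tissue, fewer cells of a type and less RNA per cell cannot be told apart. Y-linked Eif2s3y averaged -7.28 and Xist 1.71, so in this direction the knockout RNA read as female and the wild-type RNA held male RNA. Sex and genotype therefore cannot be told apart in any ratio given here.

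ABC proteins bind and hydrolyse ATP in a conserved cassette, and most use the energy to move a substrate across a membrane. In enterocytes, members on the brush border return drugs, conjugates and plant sterols to the lumen, and members on the basolateral side send cholesterol, bile salts and conjugates towards the blood. Abca proteins mostly move lipids, Abcb and Abcc proteins hold the classical drug and conjugate pumps, Abcd proteins serve peroxisomes and lysosomes, and Abcg proteins export sterols and drugs. Abce and Abcf proteins have the cassette without membrane domains and act in translation.

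The sequences printed here are the start regions of 3 sets of genes, each from 250 bases before to 50 after the start in RefSeq (GRCm38.p6). The sets were picked with their ratios in view, and whether the sequences bear on the ratios was not tested. The first set is Abcg5 and Abcg8, neighbours whose ratios had opposite signs on every array. Their windows, chr17:84682962-84683261 on the minus strand and chr17:84682871-84683170 on the plus strand, share 209 bases, which are in capitals.
Abcg5: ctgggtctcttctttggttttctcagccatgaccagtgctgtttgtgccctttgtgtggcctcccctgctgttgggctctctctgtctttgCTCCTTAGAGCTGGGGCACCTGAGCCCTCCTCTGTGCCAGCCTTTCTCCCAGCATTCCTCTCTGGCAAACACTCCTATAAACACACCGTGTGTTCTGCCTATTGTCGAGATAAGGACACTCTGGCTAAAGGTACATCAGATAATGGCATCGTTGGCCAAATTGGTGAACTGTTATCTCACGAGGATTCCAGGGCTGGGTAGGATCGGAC
Abcg8: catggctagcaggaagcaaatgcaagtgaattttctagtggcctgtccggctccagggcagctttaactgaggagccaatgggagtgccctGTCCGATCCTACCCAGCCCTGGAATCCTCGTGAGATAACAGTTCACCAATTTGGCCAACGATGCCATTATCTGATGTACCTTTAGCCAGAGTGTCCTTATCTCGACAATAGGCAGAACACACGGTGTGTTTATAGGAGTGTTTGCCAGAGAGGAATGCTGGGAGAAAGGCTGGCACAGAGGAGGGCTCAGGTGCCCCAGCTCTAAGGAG

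The second set is Abcb1a (chr5:8566841-8567140, plus strand) and Abcb1b (chr5:8797897-8798196, plus strand), neighbours that were both below wild type. Capitals mark CCAAT and GGGCGG, the CCAAT box and the GC box, searched on both strands.
Abcb1a: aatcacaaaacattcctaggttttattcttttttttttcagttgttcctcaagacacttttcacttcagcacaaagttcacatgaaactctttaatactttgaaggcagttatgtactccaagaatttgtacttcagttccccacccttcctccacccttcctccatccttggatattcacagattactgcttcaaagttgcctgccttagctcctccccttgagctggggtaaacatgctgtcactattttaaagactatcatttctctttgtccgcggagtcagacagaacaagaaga
Abcb1b: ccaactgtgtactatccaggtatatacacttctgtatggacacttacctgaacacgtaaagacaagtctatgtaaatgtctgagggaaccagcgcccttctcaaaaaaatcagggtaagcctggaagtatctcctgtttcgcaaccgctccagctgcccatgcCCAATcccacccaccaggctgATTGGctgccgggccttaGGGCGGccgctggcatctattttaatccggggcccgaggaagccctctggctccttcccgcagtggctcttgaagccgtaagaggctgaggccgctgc

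The third is Abca1 (chr4:53159846-53160145, minus strand), which had the lowest mean of the family. Capitals mark a match, on the other strand, to GGTNA followed after 5 further bases by GGTCA, a relaxed form of the direct repeat that LXR, a receptor for oxidised sterols, is known to bind.
Abca1: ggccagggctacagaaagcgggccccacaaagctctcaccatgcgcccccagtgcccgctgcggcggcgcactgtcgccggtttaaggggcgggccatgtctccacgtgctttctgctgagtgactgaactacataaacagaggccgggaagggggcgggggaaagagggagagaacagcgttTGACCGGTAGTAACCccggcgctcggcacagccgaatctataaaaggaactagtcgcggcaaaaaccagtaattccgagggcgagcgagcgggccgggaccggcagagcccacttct

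None of the 47 members passed the threshold, an adjusted p of 0.05 by limma over all 20774 genes, where 0.327% of all genes did. The smallest adjusted p was 0.0643, for Abcg1. At an unadjusted p under 0.05 there were 20 members, 42.6% of the family, beside 26.3% of all genes. Of these, 14 were below wild type (29.8% of members, beside 14.3% of all genes) and 6 above (12.8% of members, beside 12% of all genes). Without array 1 the count was 13 members (27.7%), beside 15.7% of all genes. It was 14 members (29.8%) beside 22.1% without array 2, and 14 members (29.8%) beside 18.7% without array 3. The same sign on all 3 arrays was found for 24 members (51.1%), a share close to the 50.5% of all genes, 16 of them below 0 (34% beside 27.3%) and 8 above (17% beside 23.2%). The family median was -0.14, beside -0.027 for all genes. Of the 20 members at an unadjusted p under 0.05, 17 were measured by 1 feature, so agreement between features could not be checked for them. Of all 47 members 32 had 1 feature, and of all 20774 genes 14625.

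**Figure D1:**
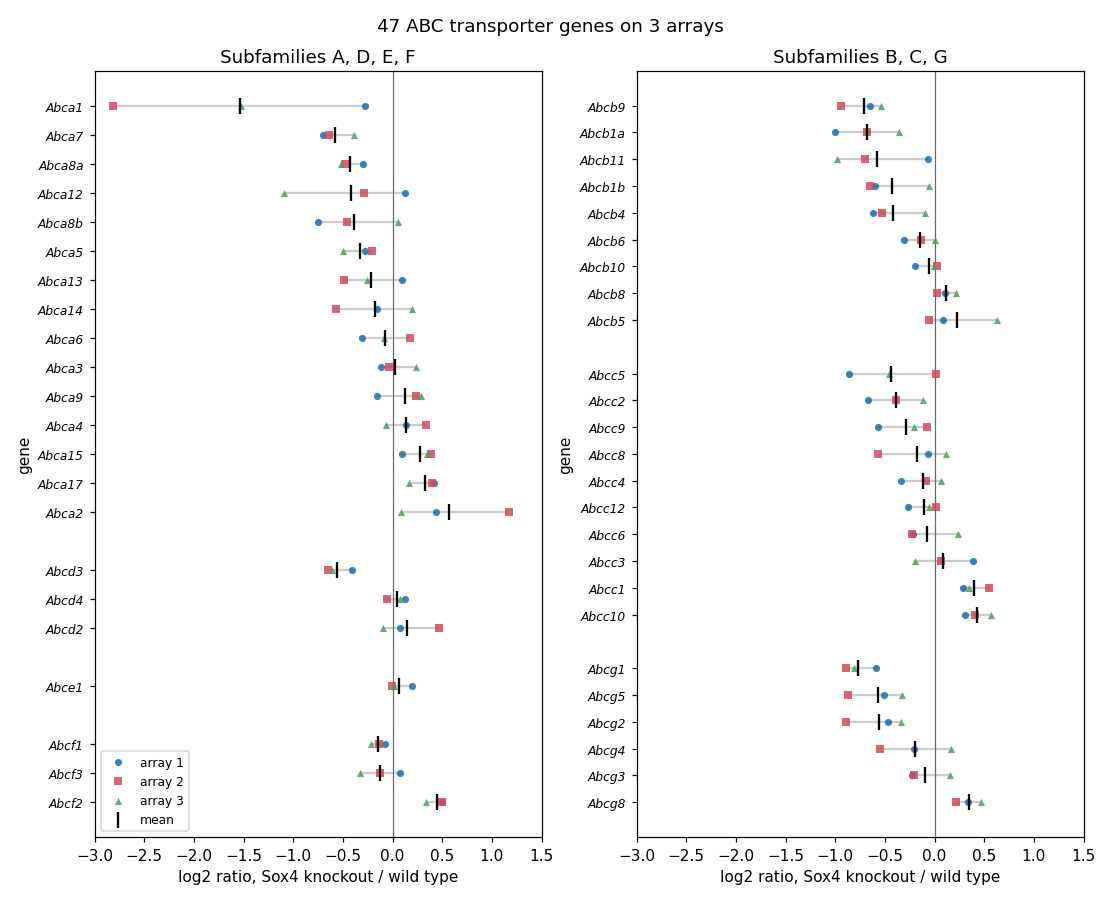
Log2 ratio of knockout over wild type (horizontal axis) of each of the 47 ABC genes on arrays 1 (circles), 2 (squares) and 3 (triangles), with a black bar for the mean and a grey line for the range. Abca1 spreads from -2.81 to -0.27, the largest range in the plot, while Abcg1, Abcb9 and Abcd3 lie below 0 on every array and Abcf2, Abcc10, Abcc1 and Abcg8 above 0 on every array.

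The subfamilies differed in their medians, which are given as descriptions. Abcb had a median of -0.42 over its 9 genes, with -0.31, -0.53 and -0.054 on arrays 1, 2 and 3. Abcg had -0.38 over 6 genes, with -0.35, -0.71 and -0.088. In both, array 3 was closest to 0 and array 2 lowest. Leaving out arrays 1, 2 and 3 in turn gave Abcb medians of -0.31, -0.32 and -0.38. The Abcg medians were then -0.395, -0.22 and -0.53. Abcg was thus lower than Abcb without array 1 and without array 3. The medians of Abca (-0.18), Abcf (-0.13) and Abcc (-0.11) were nearer to that of all genes, and that of Abcd was 0.049. These medians moved with single arrays. The Abca median was -0.0795 without array 2 and -0.082 without array 3, the Abcc median -0.0425 without array 1, -0.064 without array 2 and -0.22 without array 3, the Abcf median -0.0265 without array 3, and the Abcd median 0.0125 without array 1 and -0.0155 without array 2. Abce1, the ribosome recycling factor and only member of its subfamily, had 0.20, -0.008 and 0.015.

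**Figure D2:**
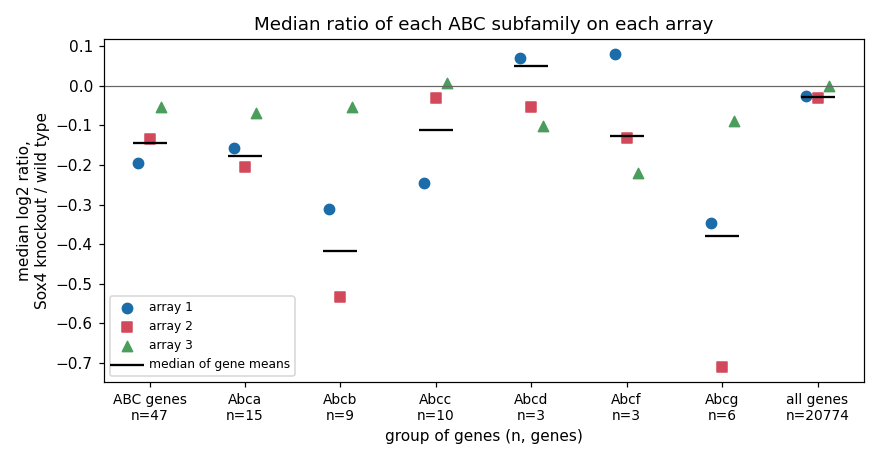
Median log2 ratio of knockout over wild type (vertical axis) of each subfamily with more than 1 gene, of all ABC genes and of all genes, on arrays 1 to 3 (points) and for the gene means (black bars). Abcb and Abcg lie lowest, with medians of the gene means of -0.42 and -0.38, and all genes lie at -0.027.

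Among exporters of cholesterol and plant sterols, the known partners Abcg5 and Abcg8 had opposite signs. Both proteins form a single sterol pump of the brush border, and each is known to need the other. Abcg5 had ratios of -0.51, -0.87 and -0.33 on arrays 1, 2 and 3 (mean -0.57 ± 0.27, 95% interval -0.93 to -0.21, adjusted p = 0.0977). Abcg8 had 0.34, 0.22 and 0.47 (mean 0.34 ± 0.13, 95% interval 0.051 to 0.63, adjusted p = 0.149). Every Abcg5 value lay below 0 and every Abcg8 value above it. The difference of Abcg5 minus Abcg8 was -0.85, -1.09 and -0.80 on the 3 arrays (mean -0.91 ± 0.15). This pair was singled out after its values were seen, so the difference is given without a test, and an exact sign-flip test on 3 arrays could not go below a two-sided p of 0.25. Each of these genes was measured by 1 feature (11553 for Abcg5 and 24772 for Abcg8), whose position in the transcript is not used here.

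The shared 209 bases printed above hold AGATAA, the motif of GATA factors, at 3 places, counted on both strands. Of all 32851 start windows of the RefSeq table, 11.2% held at least 1 such match. Counted in the Abcg8 window all 3 matches lay before its start, and counted in the Abcg5 window 2 lay before its start and 1 after it.

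Abca1, which loads cholesterol and phospholipid onto apolipoprotein A-I, averaged -1.54 ± 1.27 (2.90-fold less RNA in the knockout on average, 95% interval -2.67 to -0.40 on the log2 scale, adjusted p = 0.121). Its ratios were -0.27, -2.81 and -1.52 on arrays 1, 2 and 3. The array least below wild type and the array most below it differed by more than the mean itself. Abcg1, which passes cholesterol on to high-density lipoprotein, was steadier at -0.59, -0.90 and -0.82 (mean -0.77 ± 0.16, 95% interval -1.07 to -0.46). On both genes array 1 was nearest to 0 and array 2 farthest. Both are textbook LXR target genes, as are Abcg5 and Abcg8, which had opposite signs. A part of LXR in these values was not tested. The direct repeat marked in the Abca1 window was found in 1 of 44 ABC windows and in 0.207% of all windows, and Abcg1 was not matched to the window table. Abca7, a close relative of Abca1 with a role in phagocytosis, had -0.70, -0.64 and -0.39 (mean -0.58 ± 0.16, adjusted p = 0.0817).

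Of the remaining lipid transporters of subfamily A, Abca2, a lipid transporter of the endolysosome, was above 0 with 0.44, 1.18 and 0.0815 (mean 0.57 ± 0.56, adjusted p = 0.185). Its value rested most on array 2, and its 2 features gave nearly the same ratios. Abca17, known from rodent testis, averaged 0.32 ± 0.14, with 0.42, 0.39 and 0.16. Its features disagreed: feature 1584 had 0.60, 0.76 and 0.74, and feature 6603 had 0.24, 0.025 and -0.42. The mean of Abca17 thus joins a feature that was high on each array with one that was not.

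Abca8a had -0.30, -0.48 and -0.52 (mean -0.43 ± 0.12, adjusted p = 0.105), and Abca5 had -0.27, -0.20 and -0.50 (mean -0.33 ± 0.16, adjusted p = 0.170). Both belong to a row of 5 neighbouring Abca genes on chromosome 11, whose means did not share a sign. In chromosome order the means were -0.39 for Abca8b, -0.43 for Abca8a, 0.12 for Abca9, -0.075 for Abca6 and -0.33 for Abca5. Abca8a and Abca8b are close relatives, and with no probe sequences used here, shared signal between them could not be checked.

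The drug pumps of the brush border were below wild type. Abcb1a and Abcb1b encode the rodent forms of P-glycoprotein, which expels hydrophobic drugs and toxins. Abcb1a had -1, -0.68 and -0.36 (mean -0.68 ± 0.32, 1.60-fold less on average, adjusted p = 0.0877). Abcb1b had -0.60, -0.65 and -0.054 (mean -0.43 ± 0.33, adjusted p = 0.166). All 6 values were below 0, and both genes were nearest to 0 on array 3. Abcg2, the breast cancer resistance protein, which exports urate, conjugates and drugs, had -0.47, -0.89 and -0.33 (mean -0.56 ± 0.29, adjusted p = 0.102). Abcc2, the apical pump for glutathione and glucuronate conjugates, had -0.67, -0.38 and -0.11 (mean -0.39 ± 0.28, adjusted p = 0.171). None of these 4 genes passed the threshold, and all 4 were below 0 on each array, where 27.3% of all genes were.

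Next to Abcb1b on chromosome 5 lies Abcb4, a phosphatidylcholine exporter best known from bile canaliculi. It had -0.62, -0.53 and -0.094 (mean -0.42 ± 0.28, adjusted p = 0.156), close to Abcb1b on every array, with a difference of Abcb1b minus Abcb4 between -0.12 and 0.040. Abcb1a and Abcb1b are close paralogues, and with no probe sequences used here, shared signal between their features could not be checked. In the windows printed above, Abcb1b held 2 CCAAT boxes and 1 GC box, and Abcb1a held no match to either motif. Of all windows, 37.4% held CCAAT and 35.7% held GGGCGG.

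**Figure D3:**
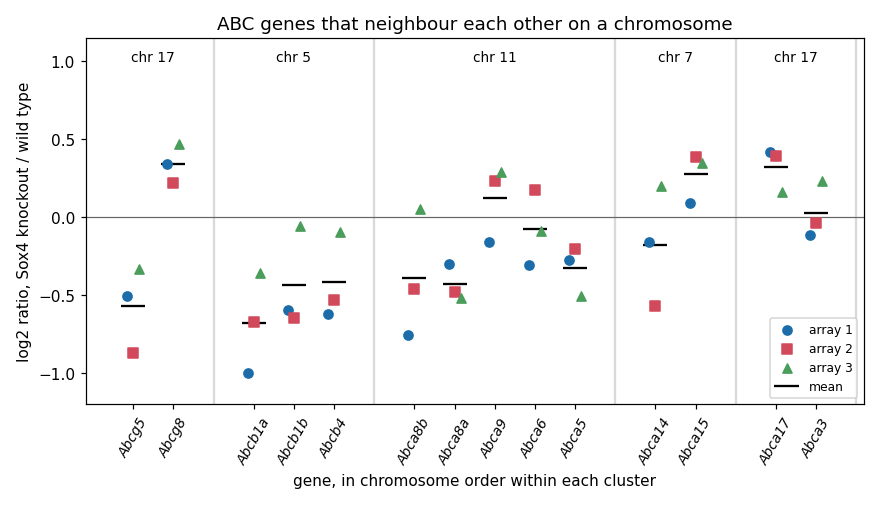
Log2 ratio of knockout over wild type (vertical axis) of ABC genes that neighbour each other on a chromosome, on arrays 1 to 3 (points), with a black bar for the mean and genes in chromosome order within each cluster. Abcg5 and Abcg8 lie on opposite sides of 0 on every array (means -0.57 and 0.34), while Abcb1a, Abcb1b and Abcb4 all lie below it.

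Abcb11, the bile salt export pump of the liver, had -0.061, -0.70 and -0.98 (mean -0.58 ± 0.47, adjusted p = 0.147). Array 1 was thus close to 0 while the others were not. Abcb9, a peptide transporter of the lysosome, had -0.65, -0.94 and -0.54 (mean -0.71 ± 0.21, 95% interval -1.03 to -0.38, adjusted p = 0.0705) and was the lowest of its subfamily. Other Abcb genes had means closer to 0. The mitochondrial members Abcb8 and Abcb10 averaged 0.12 ± 0.096 and -0.058 ± 0.12, the porphyrin transporter gene Abcb6 -0.15 ± 0.16, and Abcb5 0.22 ± 0.36. The near-0 mean of Abcb8 was made of features that disagreed, with feature 35871 at 0.43, 0.88 and 0.40, feature 43695 at 0.24, -0.25 and 0.34, and feature 62933 at -0.35, -0.55 and -0.087.

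Other conjugate carriers of subfamily C were above 0 or changed sign between arrays. Abcc1, a basolateral pump that sends glutathione conjugates and leukotriene C4 out of the cell, had 0.28, 0.55 and 0.35 (mean 0.39 ± 0.14, 95% interval 0.098 to 0.69, adjusted p = 0.124). Abcc10, a relative able to carry conjugates and drugs, had 0.31, 0.41 and 0.57 (mean 0.43 ± 0.13, adjusted p = 0.109). Both were above 0 on all 3 arrays. Abcc3, a basolateral pump for bile salts and glucuronides, had 0.38, 0.067 and -0.20 (mean 0.083 ± 0.29), and Abcc4, which carries cyclic nucleotides and other organic anions, had -0.34, -0.088 and 0.066 (mean -0.12 ± 0.20). Abcc6, linked in humans to calcification of elastic tissue, had -0.22, -0.23 and 0.23 (mean -0.0725 ± 0.26). These 3 genes changed sign between arrays.

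Abcc5, another carrier of cyclic nucleotides, was the most heavily covered member with 13 features. Its gene means were -0.86, 0.011 and -0.46 on arrays 1, 2 and 3 (mean -0.44 ± 0.44, adjusted p = 0.209). The 11 features annotated to 1 transcript gave -1.04 to -0.74 on array 1, -0.17 to 0.11 on array 2 and -0.80 to -0.28 on array 3. Features on 1 array read the same RNA sample, so these ranges do not measure variation between mice. With no probe sequences used here, whether some of these features repeat 1 probe could not be checked. The 2 features of another transcript gave -0.86 to -0.33 on array 1, -0.34 to 0.16 on array 2 and -0.80 to -0.30 on array 3. Abcc12 was near 0 as a mean (-0.10 ± 0.15) from features that disagreed, with feature 36537 at -0.34, -0.99 and -0.30 and feature 34104 at -0.20, 1.02 and 0.20. Abca4, the retinoid transporter of photoreceptors, likewise averaged 0.13 ± 0.20 from feature 27310 at 0.58, 0.84 and -0.125 and feature 8883 at -0.32, -0.17 and -0.014.

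**Figure D4:**
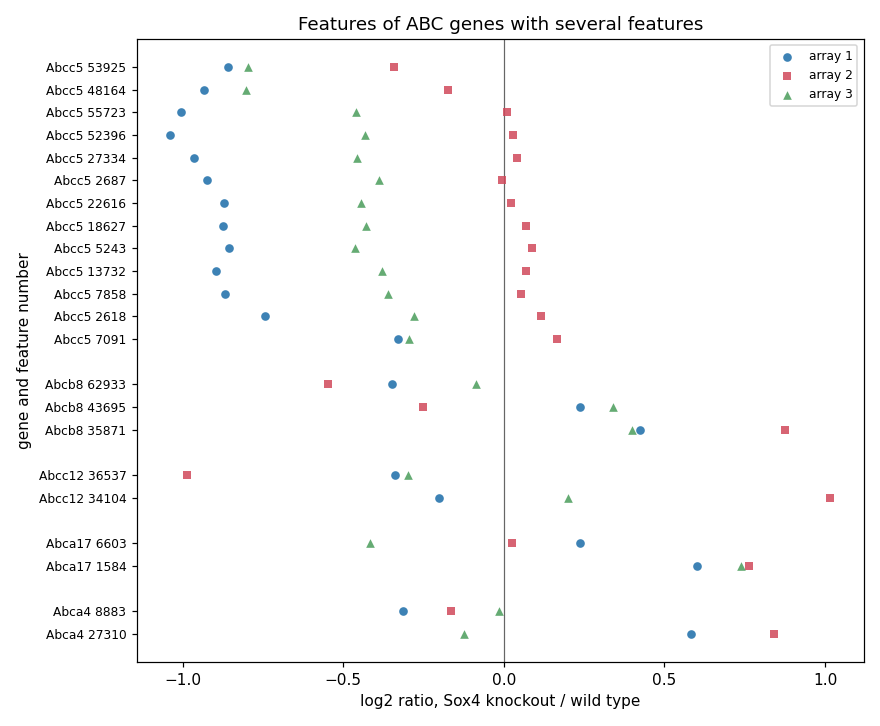
Log2 ratio of knockout over wild type (horizontal axis) of each feature of Abcc5 and of the 4 ABC genes whose feature means had opposite signs more than 0.5 apart, on arrays 1 to 3. On all 13 Abcc5 features array 1 is lowest and array 2 highest, while features of Abcb8, Abcc12, Abca17 and Abca4 lie on both sides of 0.

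In the peroxisome, Abcd3 takes in branched and dicarboxylic fatty acids. It had -0.41, -0.65 and -0.61 (mean -0.56 ± 0.13, 95% interval -0.85 to -0.26, adjusted p = 0.0808), with little spread between arrays. Abcd2, its relative for very long chain fatty acids, averaged 0.14 ± 0.29, and Abcd4, which takes part in the lysosomal export of cobalamin, 0.049 ± 0.091. Abcf2, a cassette protein without membrane domains, had 0.50, 0.49 and 0.34 (mean 0.44 ± 0.093, adjusted p = 0.0985), with the smallest SD of the 6 members above 0 at an unadjusted p under 0.05. Abcf1, which associates with the initiation factor eIF2, averaged -0.14 ± 0.073, and Abcf3 -0.13 ± 0.20. The features of Abcf1 disagreed, with feature 21055 at 0.184, 0.176 and -0.138 and feature 57473 at -0.334, -0.445 and -0.302.

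The 20 members outside the rule for array values, all with an unadjusted p of 0.05 or more by that rule, had means from -0.42 to 0.28. Among them 2 were below 0 on all arrays and 1 above, where 27.3% and 23.2% of all genes were. Abcf1, whose features disagreed, was 1 of the 2 below. The lowest, Abca12, a lipid transporter of the skin barrier, had 0.13, -0.29 and -1.09, and the highest, Abca15, had 0.094, 0.38 and 0.35. The sulfonylurea receptor genes Abcc8 and Abcc9, regulators of potassium channels, averaged -0.17 ± 0.36 and -0.28 ± 0.26. Abca3, the surfactant lipid transporter of the lung, averaged 0.026 ± 0.18.

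Start windows were found for 37 of the 47 members, 44 windows in all, and Abca6, Abcb8, Abcc1, Abcc3, Abcc6, Abcc8, Abcd2, Abcd4, Abcg1 and Abcg4 had none. AACAAAG, a motif of Sox proteins, searched on both strands, was in 2 of the 44 windows, those of Abca13 and Abcc4, and in 5.85% of all windows. None of the matched genes with an unadjusted p under 0.05 held it, 13 of them below and 5 above wild type. AGGTCA, the half-site of many nuclear receptors, was in 7 of the 44 windows, beside 16.3% of all windows. Those windows belonged to 5 of 37 members, 3 of the 13 below and 1 of the 5 above. CpG dinucleotides were counted per gene, taking the window with the most where a gene had several. Their number had a median of 19 over the 37 members, with 19 over the 13 below and 21 over the 5 above. The median was 8 over all 27025 RefSeq genes with a window, noncoding genes included.

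ABC proteins whose symbols fall outside the rule were set beside the family. Cftr, the chloride channel of crypt cells, had 0.46, 0.36 and 0.19 (mean 0.34 ± 0.14, adjusted p = 0.156). Tap1 and Tap2, whose proteins together feed peptides to MHC class I, averaged 0.49 ± 0.13 (adjusted p = 0.0912) and 0.365 ± 0.105 (adjusted p = 0.132). All 3 were above 0 on every array, where 23.2% of all genes were. Abcb9, the TAP-like peptide transporter described above, was below 0 on every array, where 27.3% of all genes were.

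Most of the conjugating enzymes listed make the glutathione, glucuronate or sulfate conjugates that Abcc and Abcg pumps export. The list also holds the glutathione synthesis genes Gclc, Gclm and Gss and the acetyltransferase genes Nat1 and Nat2. Its median was -0.53 over 28 measured genes of 30 listed. In this list, 19 were below and 1 above wild type at an unadjusted p under 0.05, where 14.3% and 12% of all genes were. The glucuronosyltransferase gene Ugt2b5 had -2.22, -3.97 and -2.10 (adjusted p = 0.0602), and the glutathione transferase gene Gstk1 -0.97, -1.19 and -0.91 (adjusted p = 0.0544). The 1 gene above was Gstp1 (0.31 ± 0.17). The list of uptake carriers also holds the exporter gene Slc47a1 and the binding protein gene Fabp6. Its median was -0.11 over 15 genes, with 5 below and 0 above by the same count. Among those below were Slc22a4, the ergothioneine carrier (-0.74 ± 0.18), Slc47a1, an exporter of organic cations (-0.73 ± 0.14), and Slc10a2, the bile salt carrier of the ileum (-0.51 ± 0.29).

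Among 17 genes of sterol uptake and lipoproteins, 9 means were below 0 and 8 above, beside 11121 and 9645 of all 20774 genes. The median of the 17 was -0.00033. At an unadjusted p under 0.05 there were 3 below and 4 above, where 14.3% and 12% of all genes were. Npc1l1, which takes up the sterols that Abcg5 and Abcg8 return, had 0.44, 0.97 and 0.26 (mean 0.56 ± 0.37, adjusted p = 0.124), and Apoa1, the acceptor for Abca1, 0.43, 0.69 and 0.097. Cd36, a fatty acid receptor, had -0.65, -1.26 and -1.36 (adjusted p = 0.0643). Of 19 nuclear receptors and factors that control ABC genes, 13 means were below 0 and 6 above, with a median of -0.12. At the same unadjusted p and beside the same shares of all genes, 4 were below (Pparg, Nr3c1, Ppara and Ahr, from -0.54 to -0.38) and 1 above (Ppard, 0.53 ± 0.23). The xenobiotic receptor genes Nr1i2 and Nr1i3, the LXR genes Nr1h2 and Nr1h3 and the bile acid receptor gene Nr1h4 were not among those with an unadjusted p under 0.05.

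Of 21 peroxisome genes, 16 means were below 0 and 5 above, beside 11121 and 9645 of all 20774 genes. The median of the 21 was -0.18. At an unadjusted p under 0.05 there were 6 below and 2 above, where 14.3% and 12% of all genes were. Slc27a2, which activates very long chain fatty acids, averaged -0.92 ± 0.29 (adjusted p = 0.0643), and Pex19, the import receptor that brings membrane proteins such as Abcd3 to peroxisomes, 0.50 ± 0.14. By the same count, 2 of 16 iron-sulfur and haem genes were below and 1 above (median -0.0525, 10 means below 0 and 6 above). Of 14 translation factors, 0 were below and 1 above (median -0.0835, 10 means below 0 and 4 above). No gene of these lists passed the threshold.

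**Figure D5:**
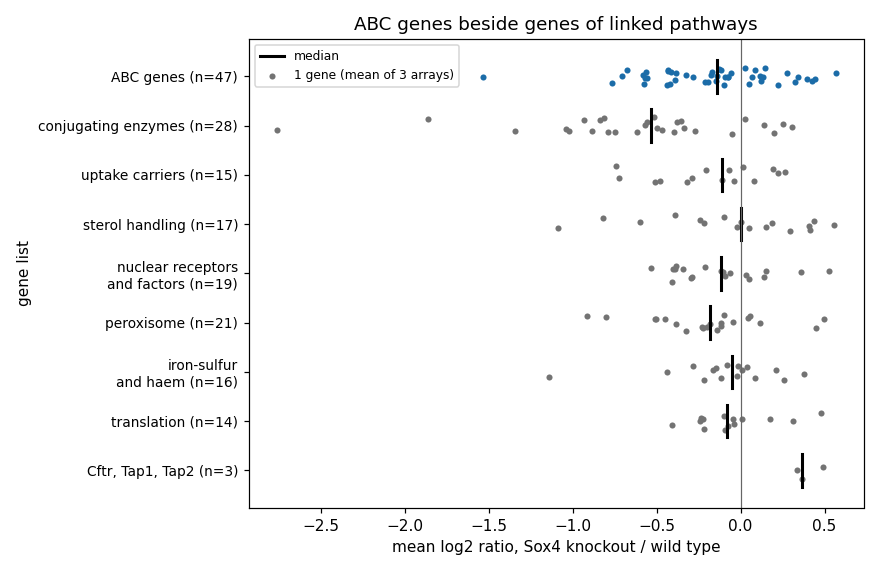
Mean log2 ratio of knockout over wild type (horizontal axis) of each ABC gene (top row) and of each gene in 8 lists of linked genes, with a black bar for the list's median. The conjugating enzymes lie lowest with a median of -0.53, the ABC genes have -0.14, and Cftr, Tap1 and Tap2 lie at 0.34 to 0.49.

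Values of the whole series that touch these results were as follows. Sox4 itself averaged -0.31 ± 0.44 and was above 0 on array 2 (0.18). Its 3 features disagreed. Feature 53932 had -1.21, -0.72 and -0.93, feature 35668 had -0.82, 0.028 and -0.43, and feature 32792 had 0.06, 1.23 and -0.022, so the labels were checked only in part, and for array 2 the direction rests on the library labelled Sox4 knockout. Y-linked Eif2s3y averaged -7.28 and Xist 1.71, both with the same sign on every array, so the animals' sexes and genotype cannot be told apart. Adipocyte markers were below 0 on all arrays for 6 of 8 genes, where 27.3% of all genes were. Their array medians were -1.63, -1.24 and -1.36. Past the threshold were 4 of them, Adipoq, Cfd, Plin1 and Retn, beside 0.327% of all genes. Acinar markers of the pancreas were below 0 on all arrays for 5 of 5 genes, beside the same 27.3% of all genes. Their array medians were -1.13, -0.76 and -1.29. Fat expresses Abca1 and Abcg1 too, and the part of either tissue in the ABC values was not tested. Macrophage markers, for cells also rich in Abca1 and Abcg1, averaged 0.18 to 0.27 over 4 measured genes of 5. Of 10 enterocyte markers, 5 had means below 0 and 5 above, beside 11121 and 9645 of all 20774 genes. The marker means ran from -0.47 for Lct to 0.83 for Anpep. At an unadjusted p under 0.05 there were 0 below and 3 above, where 14.3% and 12% of all genes were. The 3 measured erythroid markers of 6 had a median of -1.14. Medians were -0.23 for fibroblast, -0.055 for smooth muscle, 0.036 for endothelial, 0.43 for goblet and 0.60 for Paneth markers. None of these markers passed the threshold. On arrays 1, 2 and 3, fibroblast medians were -0.66, 0.24 and -0.245, and smooth muscle medians -0.46, 0.58 and -0.45. In the same order, endothelial medians were -0.34, 0.14 and 0.135, goblet medians 0.15, 0.77 and 0.64, and Paneth medians -0.0785, 1.23 and 0.46. Array 2 was thus highest in each of these lists, and a part of cell mix in the ABC values was not tested.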

How the data were processed

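Two-colour Agilent arrays compared Sox4 knockout with wild-type whole proximal jejunum, 1 knockout mouse on each of 3 arrays, with no dye swap. The deposited values were log2 ratios, whose background correction, normalization, log base and direction are not given in the labels or the file. Array medians over all 62976 features were 0.003 to 0.011, so the ratios had been centred, and they were used as deposited. Features were named through the platform annotation, and 50.0% of features had a symbol. Features of 1 gene were averaged, and 32 of 47 ABC genes had 1 feature. With limma 3.58.1 under R 4.3.3, each gene mean was compared with 0 (lmFit, eBayes, 2 residual and 3.51 prior degrees of freedom, two-sided), with Benjamini-Hochberg adjustment over all 20774 genes. Whether variation among wild-type mice enters the ratios is unknown, since any pooling is not stated. Neither a dye effect nor sex can be told apart from genotype, and precision is limited by having 3 arrays. The fit was run on simulated data, where the check required recovery only of changes larger than any mean of the family. Recovery of smaller changes is not reported here.

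Array values were given for ABC genes with an unadjusted p under 0.05 and for 15 listed transporters whatever their values. The 15 were listed as known from the intestine, but hold Abcb4 and Abcb11, described above from bile canaliculi and the liver. Array values were also given for features of opposite sign more than 0.5 apart. Single members, neighbours and pairs named beyond this were picked with their values in view. The members and all lists were chosen with earlier results of these data known. RefSeq start windows (GRCm38.p6) were searched for motifs in Python 3.11.15.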

Additional observations from a re-analysis of the deposited data

How the results depend on the processing

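Taking the median of a gene's features, centring each array, scaling the arrays to the same spread, a robust prior or updated symbols left the ABC count past the threshold at 0 and the count at an unadjusted p under 0.05 at 19 or 20. Leaving out an array in turn gave 0 past the threshold each time and 13 to 14 at an unadjusted p under 0.05, 13 of them without array 1, with fewer samples in each fit and 15.7% to 22.1% of all genes so called. The count over all genes, 68 with every array, fell to 10 when array 1 was left out, to 61 for array 2 and to 4 for array 3. The Abca median lay between -0.19 and -0.0795 when an array was left out (-0.0795 without array 2 and -0.082 without array 3), and the Abcd median turned to -0.0155 without array 2. The Abcg median was -0.22 without array 2 and -0.53 without array 3. Of 24 genes under 8 alternatives, 3 values changed sign: Abcc3 ranged from -0.067 without array 1 to 0.23 without array 3, and Abcc6 had 0.00125 without array 1, 0.0065 without array 2 and -0.23 without array 3. Abca1 had -2.17 without array 1 and -0.90 without array 2. No paired analysis was possible because the arrays form 1 group and each ratio already pairs the channels.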
